A study of Mus musculus with 13 samples.

Results

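The transcripts of unirradiated tumor leukocytes at the progression phase (T21, titled Regro 0Gy in the deposited labels) were set against those of the preceding late phase (T14, Nadir 0Gy). The measurement was the pair of 0 Gy samples of a time course of 13 nCounter samples, both read in the same nCounter run, and it covered 415 of the 547 immune genes of the panel. A gene was kept where its raw counts, averaged over all 13 samples, were above 13.1. That limit averages, over the samples, each sample's background, which lies 2 SD above the mean of its negative control probes. The filter left out 132 genes. Irf3, Il23a and Cradd lay just inside it with mean counts of 13.4, 13.2 and 13.2, and Lta, Tal1 and Cd22 just outside with 12.9, 12.9 and 12.7.

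Both samples came from CT26 tumors, a mouse colon carcinoma line implanted under the skin of the right flank of 6-week-old female BALB/c mice, and neither tumor was irradiated. The T21 sample was taken 21 days and the T14 sample 14 days after the day on which irradiation of the other arms began, so the tumors differed by 7 days of growth in untreated hosts. CD45+ cells, the leukocyte fraction, were enriched from the tumors with magnetic beads before RNA extraction. The other samples of the course were baseline, the 0 Gy samples of T2 and T7, and, for each phase, arms given 7.5 Gy in a single dose or 5 fractions of 2 Gy. The methods state 3 mice per group and do not say whether a sample was a pool, and the files hold 1 sample a condition. Each difference below is therefore a comparison of 2 samples without a replicate check or a test, and the 95% exact intervals cover counting error only.

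Tumors recruit leukocytes throughout their growth. Macrophages take up debris and present peptides on MHC class II molecules to CD4 T cells, neutrophils and monocytic or granulocytic suppressor cells (MDSCs) release inflammatory and inhibitory mediators, and cytotoxic T cells and NK cells kill with granzymes and perforin. nCounter counts barcoded probes bound to RNA without amplification, so a level is the sum over all cells of the sorted fraction. In such a bulk sample, fewer cells of a type and less RNA per cell cannot be told apart.

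The total count was 171345 in the T21 sample and 166307 in the T14 sample. Of the panel, 345 of the 547 genes at T21 exceeded that sample's background of 15.5 counts, and 349 at T14 exceeded its background of 18.3. The 14 housekeeping probes took 28.5% of the counts at T21 and 17.3% at T14, and the T21 share was the highest of the 13 samples. The values below are the authors' normalized counts, in which the housekeeping probes have the same geometric mean in every sample. Singly these probes differed between the 2 samples, with log2 ratios of T21 over T14 from -1.12 (Gusb) to 0.63 (Rpl19). A gene at or under background in both samples was not compared, and one at background in 1 sample has a fold that is a bound against that background.

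Of the 415 genes, 369 were compared, and the dominant pattern was a fall at T21. At least 2-fold lower at T21 were 133 genes (36.0% of those compared), 1 gene was at least 2-fold higher (0.271%), and 235 were not called. Below, "fell" is written of genes past this 2-fold limit. The lower calls included 15 by bound and 16 genes at 4-fold or more, and the counting interval left out no change for all 134 calls. The median log2 ratio of T21 over T14 was -0.58, and the middle part of the genes (25th to 75th percentile) lay between -1.39 and 0.01. In all, 274 genes were below 0 and 95 above. The plot of levels at T21 against T14 shows where the lists lie.

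**Figure D1:**
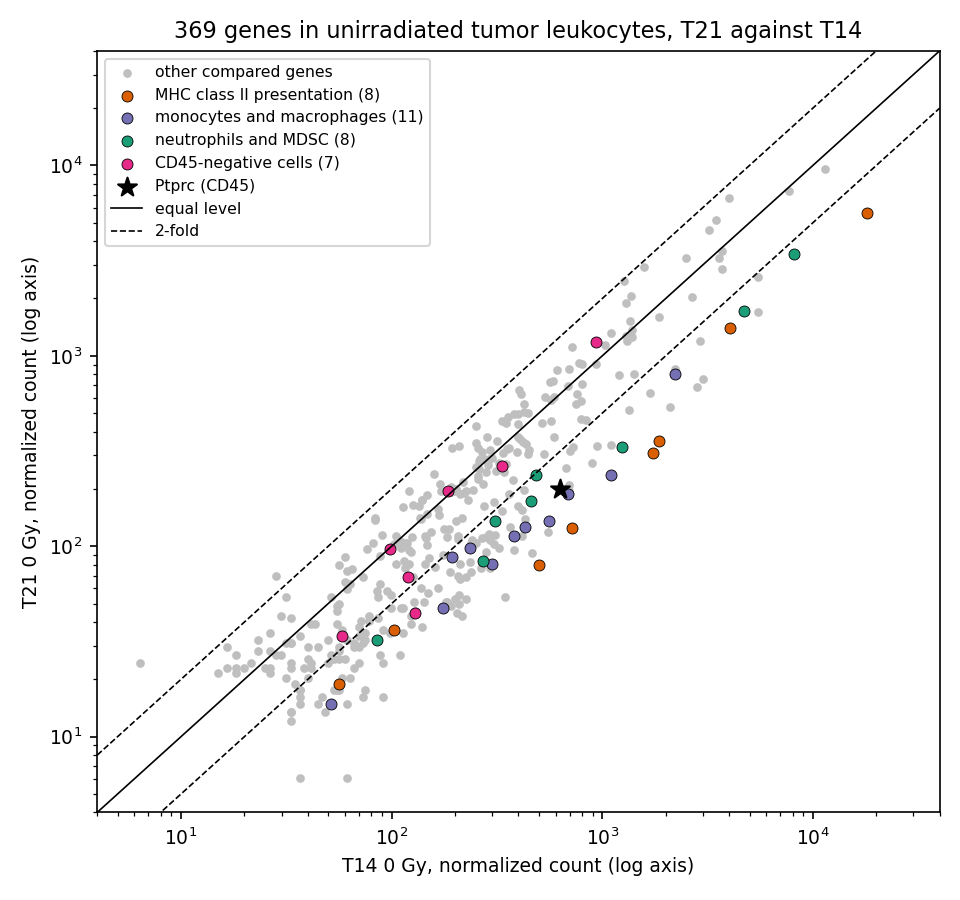
Normalized counts of the 369 compared genes at T21 0 Gy (vertical log axis) against T14 0 Gy (horizontal log axis), 1 sample each; dashed lines mark 2-fold and coloured points the gene lists named in the key. All 11 monocyte and macrophage genes, all 8 neutrophil and MDSC genes, all 8 class II genes and Ptprc (star) lie under the lower dashed line, and 6 of the 7 genes of CD45-negative cells lie inside the lines.

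The gene of the sort marker itself was among those that fell. Ptprc, which encodes CD45, had 148 raw and 199.6 normalized counts at T21, against 381 and 633 at T14, a log2 ratio of -1.67 (interval -1.95 to -1.39). The other pan-leukocyte genes moved with it. Itgb2, the shared beta chain of the leukocyte integrins, had 210.4 normalized counts at T21 and 698 at T14. Ptpn6, the phosphatase SHP-1, had 67.4 at T21 and 211 at T14, and Cd48, a ligand of NK and T cell receptors, 51.2 at T21 and 183 at T14. Of the 5 genes on this list 4 fell (80%, beside 36.0% of all genes compared). Ikzf1, a factor of lymphoid development, was at background at T21 with 9 counts there and 20 at T14 and was not called.

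Genes of cells without CD45 had the same summed level in both samples, although most of the genes were lower at T21. The 11 genes of fibroblasts, endothelium and other CD45-negative cells on the panel summed to 1922 normalized counts at T21 and 1922 at T14, and the median log2 ratio of the 7 compared was -0.35. Fn1, the matrix protein fibronectin, had 1175 at T21 and 931 at T14 (log2 0.34, interval 0.18 to 0.49). Pdgfrb, a receptor of pericytes and fibroblasts, had 196 at T21 and 186 at T14, and Vcam1, an adhesion molecule of endothelium and stroma, 263 at T21 and 336 at T14. Sele, the E-selectin of activated endothelium, had a log2 ratio of -0.01. Thy1, a surface protein of fibroblasts and T cells, had 68.8 at T21 and 119.7 at T14 (log2 -0.80), and Cdh5, the cadherin of endothelium, 33.7 at T21 and 58.2 at T14 (log2 -0.79). Of the 7 genes 5 were below 0, and without Fn1 the list summed to 747 at T21 and 992 at T14, a sum taken after the values were seen. Only Pecam1 of the 7 fell, to 44.5 at T21 against 129.6 at T14, and this adhesion molecule is also carried by leukocytes. Ncam1, Il11ra1 and Cxcl15 were removed by the filter, Cxcl12 was at background in both samples, and the epithelial genes Epcam and Cdh1 of the list were not on the panel. The part that cells without CD45 had in the general fall was not tested.

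The split of calls changed with the scale. With the positive control probes as the scale the counts were 133 lower and 1 higher. The housekeeping probes above 100 counts, 12 of the same 14, gave 141 lower and 1 higher. Scaling by total immune gene counts moved all log2 ratios up by 0.50 and gave 66 lower and 22 higher, and the median of ratios, with a shift of 0.63, gave 52 lower and 33 higher. Scaled to the 5 pan-leukocyte genes, a shift of 1.67, 1 gene (Lilrb4a) was lower and 193 were higher. The bar chart of calls by scaling shows these splits. Directions below hold on the housekeeping scale, and each list is also placed against the median of all genes compared, a distance that a common scale factor leaves as it is.

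**Figure D2:**
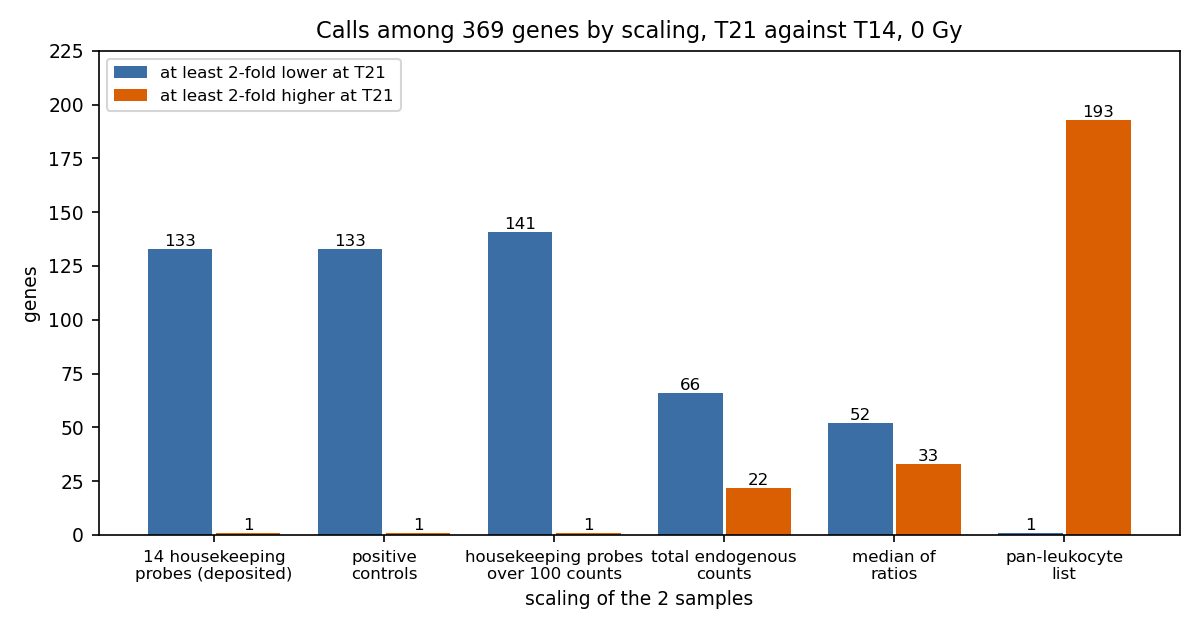
Number of the 369 genes at least 2-fold lower (left bar of each pair) and at least 2-fold higher (right bar) at T21 0 Gy against T14 0 Gy, for the deposited housekeeping scaling and 5 others. The deposited scaling gives 133 lower and 1 higher calls, and the pan-leukocyte scaling 1 lower and 193 higher.

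Antigen presentation split by MHC class. All 8 compared genes of the class II list fell, beside 36.0% of all genes compared. Their median log2 ratio was -2.03, a difference of -1.45 from the median of all genes. None of the 6 compared class I genes fell, and their median was -0.24.

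For the class II list, promoter sequence is shown for the members that carry the Y box, the element TGATTGG bound by NF-Y, which with the neighbouring X box recruits the transactivator CIITA. It was searched on both strands in RefSeq promoters of GRCm38.p6, 250 bases before to 50 after each gene's start. Of the 8 genes 5 had a promoter there and 3 held the element, while it was found in 7.82% of all promoters of the same length. It lay on the gene's own strand in each, 50, 61 and 92 bases before the annotated start. The windows are chr17:34287847-34287913 on the minus strand for H2-Aa, chr17:34305766-34305832 on the plus strand for H2-Eb1 and chr17:34145117-34145183 on the plus strand for H2-DMb2, 5′ to 3′ along the gene, with the Y box in capitals.
H2-Aa: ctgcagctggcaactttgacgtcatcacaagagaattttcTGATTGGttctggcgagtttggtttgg
H2-Eb1: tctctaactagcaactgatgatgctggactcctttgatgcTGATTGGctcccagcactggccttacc
H2-DMb2: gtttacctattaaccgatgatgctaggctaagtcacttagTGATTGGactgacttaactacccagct
A match is a description of these letters, and binding was not measured.

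The chains of the class II molecules themselves fell by different amounts. H2-Ab1, the beta chain of I-A, had 228 raw and 308 normalized counts at T21, against 1050 and 1745 at T14 (log2 -2.50, interval -2.72 to -2.30). H2-Aa, its alpha chain, had 124 at T21 and 715 at T14 (log2 -2.53, interval -2.87 to -2.20), and H2-Eb1, the beta chain of I-E, 1408 at T21 and 4043 at T14 (log2 -1.52, interval -1.63 to -1.42). The interval of H2-Eb1 does not reach those of the I-A chains. H2-DMa, a chain of the peptide editor H2-M, fell furthest of the list, to 79.6 at T21 against 500.2 at T14. Its partner H2-DMb2, which has a near-identical copy and is uncertain for that reason, had 36.4 at T21 and 103 at T14. Cd74, the invariant chain and the member with the highest counts, had 5631 normalized counts at T21 and 18040.2 at T14. Ctss, the protease cathepsin S that trims it, had 357 at T21 and 1868 at T14. Ciita, the transactivator, was at background at T21 with 14 counts against 34 at T14, at least 2.70-fold lower. Among class I genes, B2m, the light chain, had 9558 at T21 and 11471 at T14 (log2 -0.26), the heavy chain H2-K1 3248 at T21 and 3569 at T14 (log2 -0.14), and the peptide transporter Tap1 446 at T21 and 518 at T14 (log2 -0.22).

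Every compared monocyte and macrophage gene fell, beside 36.0% of all genes compared. The 11 genes had log2 ratios from -2.21 to -1.14 with a median of -1.80, and the summed level of the list was 1948 at T21 and 6343 at T14. Csf1r, the receptor through which CSF1 keeps macrophages alive, had 176 raw and 237 normalized counts at T21, against 659 and 1095 at T14 (log2 -2.21, interval -2.45 to -1.96). Adgre1, which encodes the macrophage antigen F4/80, had 136 at T21 and 560.0 at T14. Ccr2, the receptor by which monocytes leave the marrow, had 47.2 at T21 and 176 at T14, and the scavenger receptor Msr1 187 at T21 and 685 at T14. The smallest change of the list was that of Cx3cr1, the fractalkine receptor, with 87.7 at T21 and 193 at T14 (log2 -1.14). Cd14, the lipopolysaccharide co-receptor, had 807 at T21 and 2223 at T14 (log2 -1.46).

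Genes that macrophages use to take up opsonized material fell with them. Of 11 genes of Fc receptors and their signaling 10 fell (90.9%, beside 36.0% of all genes compared). Fcgr1, Fcgr3 and Fcgr4 are also on the monocyte and macrophage list, and Ptpn6 on the pan-leukocyte list. The inhibitory receptor Fcgr2b had 682 normalized counts at T21 and 2822 at T14 (log2 -2.05, interval -2.19 to -1.90). The activating receptors Fcgr3, Fcgr1 and Fcgr4 had log2 ratios of -1.89, -1.76 and -1.75, and the adaptors Tyrobp and Fcer1g -1.37 and -1.37, so the inhibitory and the activating members moved the same way. Fcgrt, the neonatal Fc receptor, which is also expressed by endothelium, was the member that did not pass 2-fold, with 306 at T21 and 445 at T14. Btk, a kinase downstream of B cell and Fc receptors, was at background at T21 with 6 counts against 37 at T14, at least 2.94-fold lower. Of 14 complement genes 8 fell (57.1%, beside 36.0% of all genes compared). They included Cfp, the stabilizer properdin, with 91.7 at T21 and 464 at T14, and the C1q chains C1qa, with 754 at T21 and 3008 at T14, and C1qb, with 538 at T21 and 2087 at T14. In the same list Serping1, the C1 inhibitor, had 138 at T21 and 83.1 at T14 (log2 0.73), the mitochondrial C1q-binding protein C1qbp a log2 ratio of 0.33 and the lectin pathway protease Masp1 one of 0.48.

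All 8 compared genes of the neutrophil and MDSC list also fell, by less, beside 36.0% of all genes compared. Their median log2 ratio was -1.40, a difference of -0.82 from the median of all genes. S100a9 and S100a8, the chains of the calprotectin complex, had 3423 and 1729 normalized counts at T21, against 8098 and 4729 at T14. Their log2 ratios were -1.24 (interval -1.31 to -1.17) and -1.45 (interval -1.55 to -1.36). Itgam, which encodes CD11b and is shared with macrophages, showed the largest fall of the list, to 332 at T21 against 1246 at T14. Trem1, an activating receptor of neutrophils and monocytes, had 83.6 at T21 and 273 at T14. Csf3r, the G-CSF receptor, had 173 at T21 and 460.3 at T14, the chemokine receptor Cxcr2 24 raw counts at T21 and 51 at T14, and the decoy receptor Il1r2 237 at T21 and 482 normalized counts at T14. Ly6g and Arg1, further genes of the list, were not on the panel. All 5 compared genes of the dendritic cell list fell, beside 36.0% of all genes compared. Irf8, a factor of dendritic cell development, had 27.0 at T21 and 109.7 at T14. Itgax, which encodes CD11c, had 197 at T21 and 424 at T14, and Cd83, a maturation marker, 125 at T21 and 366 at T14. The homing receptor Ccr7 was at background at T21 and at least 3.02-fold lower. Irf8, Itgax and Ccr7 are also members of other lists. Batf3 and Xcr1 of the dendritic cell list were removed by the filter, and Flt3, Clec9a, Cd209a, Zbtb46, Itgae and Ly75 were not on the panel.

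**Figure D3:**
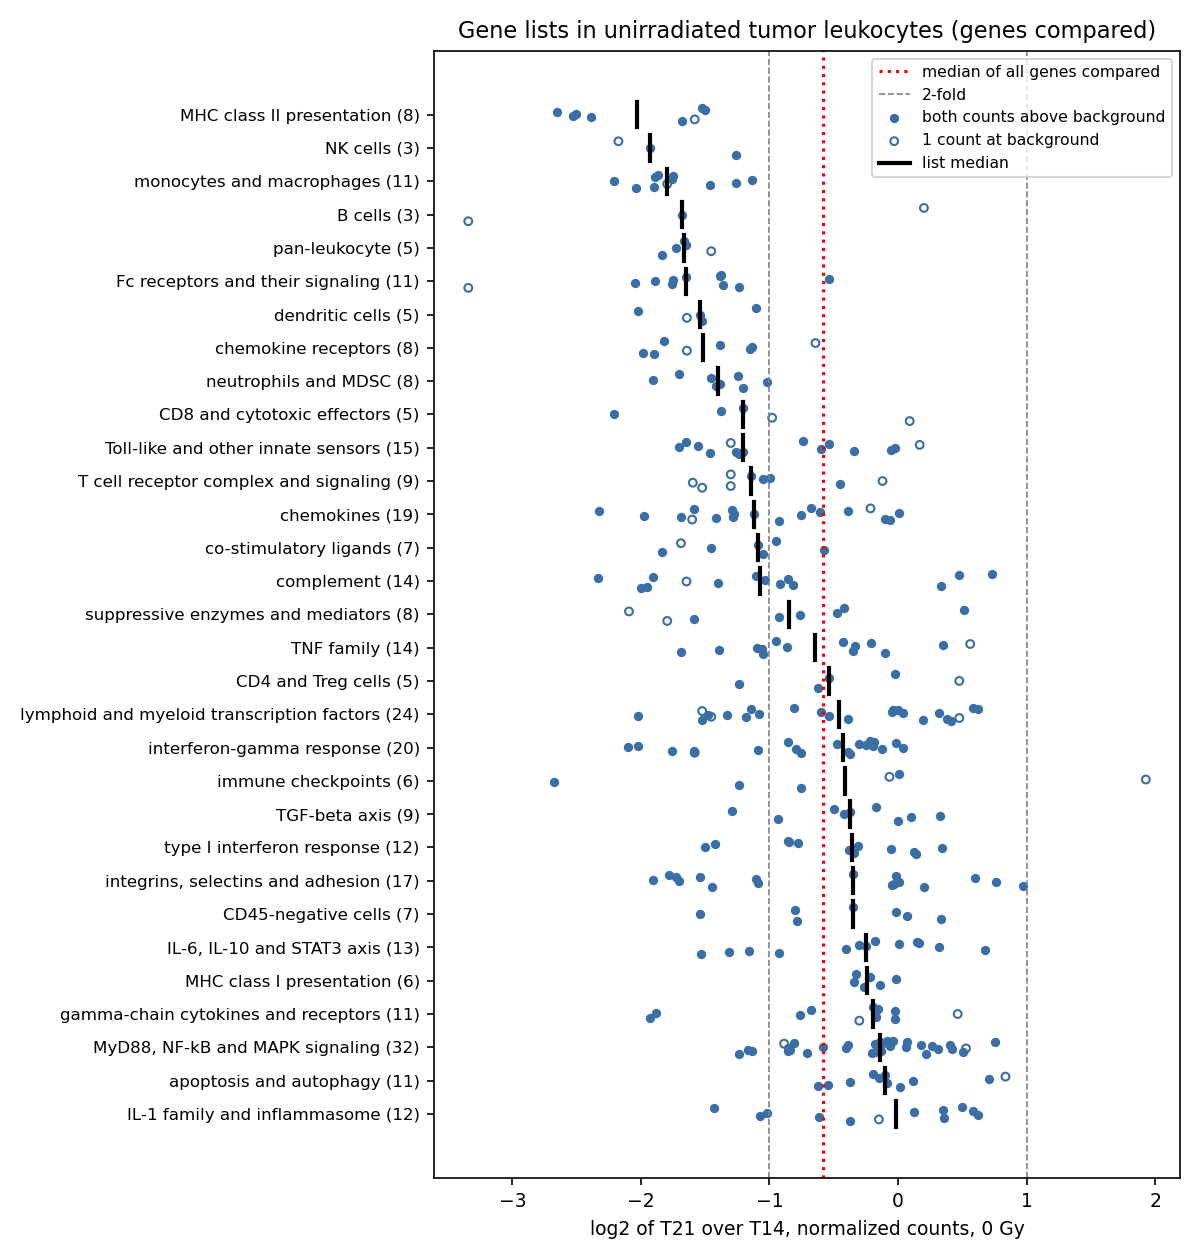
Log2 ratio of T21 over T14 at 0 Gy (horizontal axis) for each compared gene of 31 lists (rows, number of genes in brackets, sorted by median). Black bars are list medians and the dotted line is the median of all 369 genes at -0.58. Open points are genes at background in 1 sample. Their ratios, also within the medians, use the deposited normalized values, in which the lowest values were raised to a floor. The class II list has the lowest median at -2.03 and the IL-1 family list the highest at -0.01.

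Lymphocyte genes were few and low, which limits what their folds show. The T cell receptor list had 15 genes on the panel, 9 compared and 4 that fell (44.4%, beside 36.0% of all genes compared). Cd3e, a chain of the receptor complex, was at background at T21 with 11 counts against 27 at T14 and was at least 2.14-fold lower, while Cd3d, another chain, had 18 at T21 and 20 counts at T14 (log2 -0.45, interval -1.46 to 0.54). Cd2 was at least 2.22-fold lower, Tcf7, a factor of T cell development, had 19 counts at T21 and 34 at T14, and the kinase Lck had 21 counts at T21 and 34 at T14 (log2 interval -1.85 to -0.17). Cd4 had 24 at T21 and 30 counts at T14, and Foxp3, the factor of regulatory T cells, was at background in both samples. With so few counts the interval of Cd3d spans both directions and that of Lck reaches from under to over 2-fold. Among cytotoxic genes Gzma, the protease granzyme A, had 88 raw and 119 normalized counts at T21, against 331 and 550.0 at T14 (log2 -2.21, interval -2.57 to -1.87). Granzyme B (Gzmb) had 72.8 at T21 and 189 at T14 and perforin (Prf1) 32.4 at T21 and 74.8 at T14. The co-receptor gene Cd8a had 21 counts at T21 and 16 at T14, where it was at background, so that no fold is given. Ifng was at background in both samples. All 3 compared genes of the NK list fell, beside 36.0% of all genes compared. Il2rb, the beta chain of the IL-2 and IL-15 receptor, had 76.9 normalized counts at T21 and 292 at T14. Klrc1, an inhibitory NK receptor, was at background at T21 with 12 counts against 44 at T14, at least 3.49-fold lower. Klra1, Klrc2 and Cd244a of the list were removed by the filter, and Klrd1 was at background in both samples. Ncr1, Klrb1c and Klrg1 were not on the panel. The B cell genes Cd79a and Pax5 were removed by the filter, and Ms4a1, which encodes CD20, had 17 counts at T21 and 12 at T14, at background in the T14 sample.

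The receptor and ligands of the PD-1 axis, which the study followed, had few counts apart from Cd274. Pdcd1, the gene of PD-1, had 18 raw counts at T21 and 6 at T14, where it was at background, and since the T14 background is higher than its T21 level no fold is given. Cd274, the gene of PD-L1, had 121 raw and 163 normalized counts at T21, against 166 and 276 at T14, a log2 ratio of -0.76 (interval -1.11 to -0.41) that lies close to the -0.58 of all genes. Pdcd1lg2, the gene of PD-L2, had 20 at T21 and 17 counts at T14. Of the other checkpoint genes, the myeloid inhibitory receptor Lilrb4a had the largest fall of any gene above background in both samples, to 54.0 normalized counts at T21 against 344 at T14 (log2 -2.67, interval -3.20 to -2.18); it has a near-identical copy. Ctla4 had 29.7 at T21 and 69.8 at T14, and Tigit 63.4 at T21 and 63.1 at T14. Of 7 co-stimulatory ligands 5 fell (71.4%, beside 36.0% of all genes compared). Cd86 had 60.7 at T21 and 166 at T14, and Icosl was at least 2.70-fold lower. Cd80, the other CD28 ligand, had 136 at T21 and 203 at T14 (log2 -0.57).

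Chemokines divided by gene. Of 19 compared 10 fell (52.6%, beside 36.0% of all genes compared). Cxcl13, the B cell attractant, had 43.2 normalized counts at T21 and 216 at T14, and Ccl6, a myeloid chemokine, 48.6 at T21 and 191 at T14. The inflammatory chemokines Ccl4 and Ccl3 had 339.9 and 635 at T21, against 1097 and 1693 at T14. Cxcl9, a T cell attractant induced by interferon-gamma, had 93.1 at T21 and 279 at T14. Ccl2, a monocyte attractant, had 3545 at T21 and 3711 at T14 (log2 -0.07, interval -0.15 to 0.02), and its receptor gene Ccr2 is among the falls given above. Cxcl1 had a log2 ratio of -0.60 and Cx3cl1 one of 0.00. Of 8 compared receptors 7 fell (87.5%, beside the same 36.0%), including Cxcr4, the receptor of Cxcl12, with 196 at T21 and 691 at T14.

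Inflammatory cytokines and their receptors did not move together. Tnf had 256 normalized counts at T21 and 673 at T14, Il1b 2599 at T21 and 5469 at T14, and its antagonist Il1rn 115 at T21 and 309 at T14, each past 2-fold. Ltb, a lymphoid TNF family member, had 35.1 at T21 and 113 at T14. In the same lists Il6 had 334 at T21 and 209 at T14 (log2 0.68, interval 0.36 to 1.00). The IL-1 receptor Il1r1 had 631 at T21 and 410.5 at T14 (log2 0.62), and the IL-33 receptor Il1rl1 5175 at T21 and 3455 at T14 (log2 0.58). The IL-1 family list as a whole had a median of -0.01, with 3 of 12 genes lower (25%, beside 36.0% of all genes compared). Of 8 genes of suppressive mediators 3 fell (37.5%), close to the 36.0% over all genes compared. They were the scavenger receptor Cd163, at background at T21 and at least 2.46-fold lower, and the enzymes that turn extracellular ATP into adenosine: Entpd1 (CD39), with 103 at T21 and 307 at T14, and Nt5e (CD73), at background at T21 and at least 3.57-fold lower. Ptgs2, the prostaglandin synthase COX-2, had 4594 at T21 and 3212 at T14 (log2 0.52, interval 0.44 to 0.60). Tgfb1 had a log2 ratio of -0.42, and its induced matrix protein Tgfbi fell to 1191 at T21 against 2919.7 at T14.

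Innate sensors and the signaling that follows them gave different counts. Of 15 compared Toll-like and other innate sensors 7 fell (46.7%, beside 36.0% of all genes compared). Their median log2 ratio was -1.20, or -0.81 with genes at background set to their bound. Tlr1 and Tlr2, which pair to sense bacterial lipopeptides, and Tlr8 had log2 ratios of -1.71, -1.55 and -1.65, and Tlr4, the lipopolysaccharide receptor, one of -0.53. Of 32 genes of MyD88, NF-kB and MAPK signaling 3 fell (9.4%), among them the adaptor Card9, and the median was -0.14. Nfkbia, the inhibitor of NF-kB, had 7358 normalized counts at T21 and 7702 at T14, and Nfkbiz 2038 at T21 and 2667 at T14. The interferon lists stood between these, with 2 of 12 type I (16.7%) and 6 of 20 interferon-gamma genes (30.0%) lower, beside 36.0% of all genes compared. Of the interferon-gamma genes that fell, Irf8, Fcgr1, Cxcl9, Ciita and Icam1 are also members of other lists. The medians of the type I and the interferon-gamma list were -0.36 and -0.43. The restriction factor Ifitm1 had 336 at T21 and 949 at T14, the receptor chain Ifnar2 155 at T21 and 415 at T14, and the myeloid factor Irf5 52.6 at T21 and 226 at T14. Irf1, an early interferon-induced factor, had a log2 ratio of 0.04. None of 11 apoptosis and autophagy genes fell.

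The genes that did not follow the fall were led by Csf2. This gene, which encodes GM-CSF, was the only one called higher, with 52 counts at T21 against 17 at T14, where it was at background, and was at least 2.30-fold higher. The next largest ratios stayed under 2-fold. Cd34, a surface protein of progenitors and endothelium, had 2482 normalized counts at T21 and 1266 at T14 (log2 0.97, interval 0.85 to 1.09), and Cd9, a tetraspanin of many cell types, 2935 at T21 and 1570.4 at T14 (log2 0.90). The cytokine Mif had 6771 at T21 and 3995 at T14 (log2 0.76), and the kinase Src, the fibronectin receptor chain Itga5 and the adaptor Traf1 had log2 ratios of 0.76, 0.76 and 0.76. Itgb1, the partner of Itga5, had 2062 at T21 and 1363 at T14, against the falls of the leukocyte integrins Itgb2 and Itgam. Igf2r and the factor Tcf4 had log2 ratios of 0.69 and 0.62. Of the largest falls not placed in a list, Cmklr1, the chemerin receptor, had 33 counts at T21 and 123 at T14, Ly86, the partner of RP105, 37 at T21 and 125 at T14, and Ptger4, a prostaglandin E2 receptor, 12 at T21 and 55 at T14. Ptger4 was at least 4.37-fold lower.

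The earlier 0 Gy samples place the pair in the course, though baseline and T2 were read in another run and T7 in yet another, so only T14 and T21 share a run. Csf1r had 440.4 normalized counts at baseline, 402 at T2, 1187 at T7, 1095 at T14 and 237 at T21. Ptprc had 518, 389.7, 1100.1, 633 and 199.6 in the same order. Both were highest at T7 and lowest at T21. S100a9 differed from them, with 499 at baseline, 967 at T2, 10738 at T7, 8098 at T14 and 3423 at T21, so that its T21 level was still above that of baseline. Cd34 had 2838 at baseline, 3428 at T2, 2179 at T7, 1266 at T14 and 2482 at T21, and was lowest at T14. Of the 133 genes that fell, 115 were below baseline at T21 and 99 above it at T14. Within the run of 5 samples T21 0 Gy was the lowest for 116 of the 133 and T14 0 Gy the highest for 33. Since the genes were chosen for being lower at T21 than at T14, these places are a description. For every gene, a step between samples of different runs cannot be told apart from the run. The whole run stood apart for some genes: all 5 of its samples were below the other 8 for 40 of the 415 genes and above them for 17. Among them are Lilrb4a, Ccl9 and Hif1a of the genes that fell, all below, and 2 of the genes plotted by phase, Il1rl1 (below) and Mif (above).

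**Figure D4:**
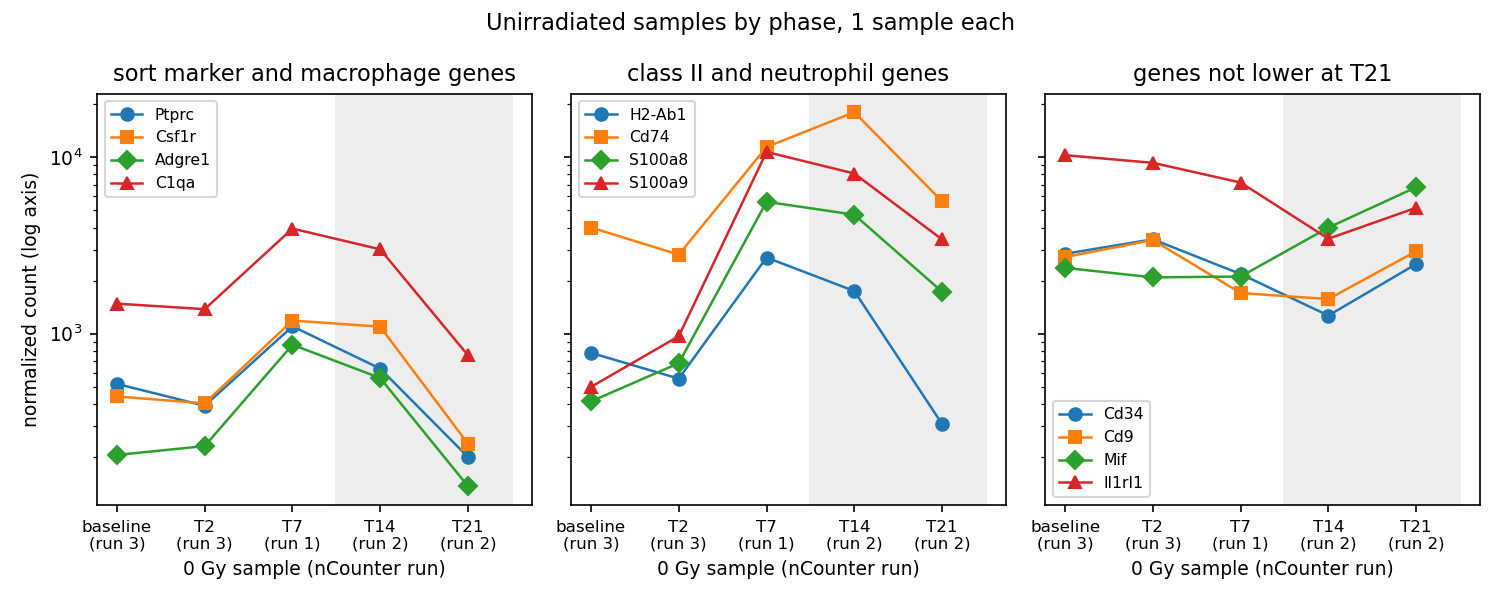
Normalized counts (vertical log axis) of 12 named genes in the 5 unirradiated samples by phase, 1 sample each, with the nCounter run in brackets; the shaded pair, T14 and T21, shares a run. Macrophage, class II and neutrophil genes decline between T14 and T21, whereas Cd34, Cd9, Mif and Il1rl1 are higher at T21 than at T14. Steps between runs cannot be told apart from the run for any gene, and for Mif and Il1rl1 the whole shaded run stood apart from all other samples.

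The 7.5 Gy × 1 arm has its own T21 and T14 samples in the same run and shares none with the 0 Gy pair. At 0 Gy 133 of 369 genes fell between the phases, and at 7.5 Gy 136 of 412 (33.0%), with 2 higher (0.485%), Atm and Cd9. The medians were -0.58 at 0 Gy and -0.64 at 7.5 Gy. Genes that fell in both arms numbered 70, which is 52.6% of the 0 Gy falls and 51.5% of those at 7.5 Gy, and none was called in opposite directions. Across the 368 genes compared in both arms the log2 ratios had a Pearson r of 0.57 and a Spearman rho of 0.62, across genes that share a run, probes and a background floor. Genes are not independent replicates, so no p is attached.

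The arms differed in which lists fell, a difference that was not tested. Over all genes compared, 36.0% fell at 0 Gy and 33.0% at 7.5 Gy. All 8 neutrophil and MDSC genes fell at 0 Gy and 0 at 7.5 Gy, with medians of -1.40 at 0 Gy and -0.27 at 7.5 Gy. S100a8 had 1729 normalized counts at T21 and 4729 at T14 at 0 Gy, and 4759.9 at T21 and 2520.2 at T14 at 7.5 Gy. All 11 monocyte and macrophage genes fell at 0 Gy and 4 at 7.5 Gy, with medians of -1.80 at 0 Gy and -0.87 at 7.5 Gy. Csf1r had a log2 ratio of -2.21 at 0 Gy and -0.79 at 7.5 Gy, and Cd14 one of -1.46 at 0 Gy and -0.15 at 7.5 Gy. T cell genes showed the opposite order: 4 of 9 compared fell at 0 Gy and 13 of 14 at 7.5 Gy, with medians of -1.14 and -1.59. Of the cytotoxic genes 3 of 5 fell at 0 Gy and 8 of 9 at 7.5 Gy, with medians of -1.21 and -2.15. Gzmb had 72.8 at T21 and 189 at T14 at 0 Gy, and 97.0 at T21 and 581 at T14 at 7.5 Gy. Cd8a had 21 counts at T21 and 16 at T14 at 0 Gy, and 8 at T21 and 32 at T14 at 7.5 Gy. Background was lower in the 7.5 Gy samples, at 7 counts at T21 and 12.5 at T14, so more of the low lymphocyte genes could be compared and called there. At 0 Gy Zap70 and Cd247 each had 10 counts at T21 and 20 at T14 (log2 -1.30). They were not called, since their bound against the T21 background was under 2-fold. Pdcd1 had 18 counts at T21 and 6 at T14 at 0 Gy, and 8 at T21 and 37 at T14 at 7.5 Gy. The class II list fell in both arms, 8 of 8 genes at 0 Gy and 7 of 8 at 7.5 Gy, and H2-Aa had the largest fall of the list at 7.5 Gy, with 18 counts at T21 and 546 at T14. Ptprc had log2 ratios of -1.67 at 0 Gy and -1.08 at 7.5 Gy, and the summed level of CD45-negative genes in the 7.5 Gy arm was 2307 at T21 and 2771 at T14, with 4 of 8 compared genes lower. The 2 Gy × 5 arm was not compared here, because its T14 sample was read in another run.

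**Figure D5:**
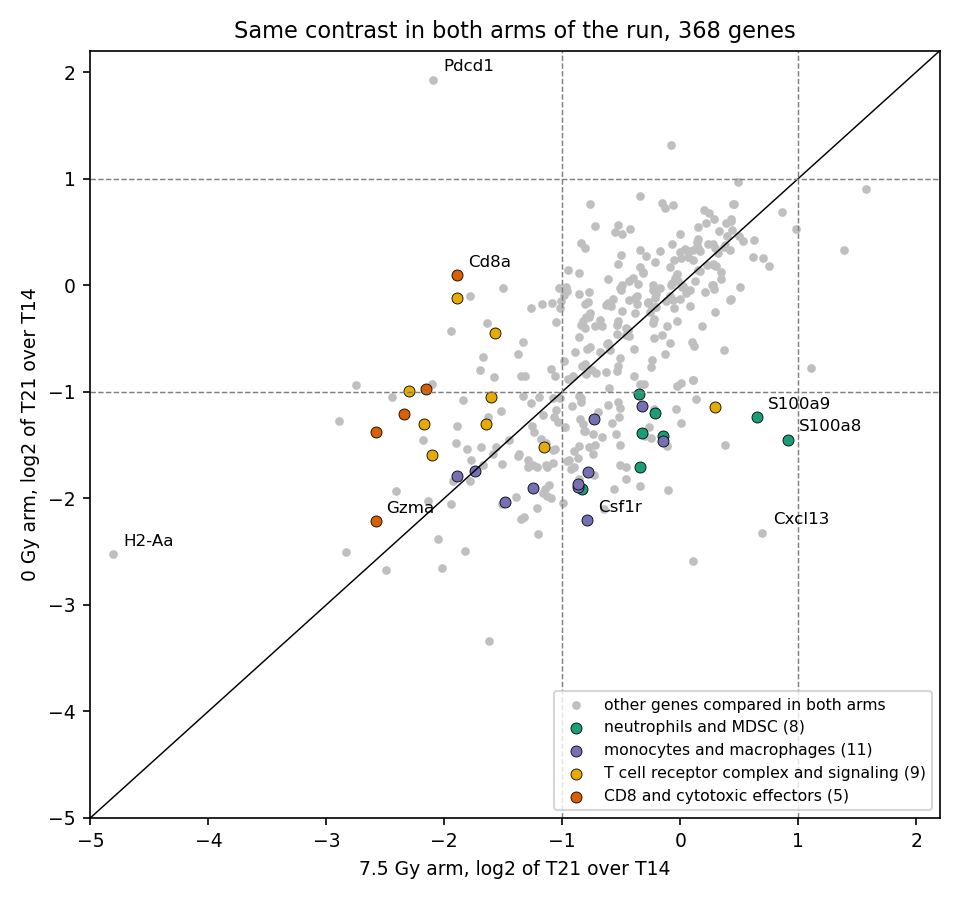
Log2 ratio of T21 over T14 at 0 Gy (vertical axis) against the same ratio at 7.5 Gy (horizontal axis) for the 368 genes compared in both arms. Dashed lines mark 2-fold and the diagonal equal ratios. Genes at background in 1 sample are plotted at the ratio of the deposited normalized values, in which the lowest values were raised to a floor. Pdcd1 at 0 Gy, drawn at 1.93, is such a point and has no fold. Neutrophil genes lie under the lower horizontal line and to the right of the left vertical line, whereas most T cell and cytotoxic genes lie to the left of that line.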

How the data were processed

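RNA of CD45+ tumor cells was hybridized to the nCounter mouse immunology panel in 13 samples. Raw probe counts were deposited per sample. The authors also deposited a normalized signal, in which 1 scale factor a sample sets its 14 housekeeping probes to a common geometric mean of 789 and values were not allowed under the geometric mean of the negative controls, and a value table that repeats it (0 of 7475 values differed). Groups came from the sample titles. RefSeq identifiers were matched to symbols by accession, and 10 of 547 immune probes had no match. Log2 ratios were taken from the normalized signal without a pseudocount, and a call was a fold of at least 2. A sample's background was the mean plus 2 SD of its 8 negative controls. Intervals of the count ratio are 95% exact (Clopper-Pearson) and cover counting error only. With 1 sample a condition no statistical test was run. Total counts over the 13 samples ranged from 166307 to 675847. The calling step was tested on simulated counts.

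Named genes were the 15 largest rises and 15 largest falls whose interval left out no change. In each list up to 6 called and up to 3 uncalled members were named. Others were Ptprc and the PD-1 axis, the genes at the edge of the filter, and called genes that moved in opposite directions in the arms. The comparison, its genes and the 32 gene lists were chosen with earlier results of these data known. Other scalings, filters and background rules were tried. Python 3.11.15, numpy 2.4.6, pandas 2.3.3, scipy 1.17.1 and matplotlib 3.10.9 were used.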

Additional observations from a re-analysis of the deposited data

Results flagged for a closer look

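Genes whose log2 ratio of T21 over T14 ran in opposite directions in the 0 Gy and the 7.5 Gy arm stood out. For 7 genes the counting intervals of the arms lay on opposite sides of no change. Among them was Itga5, called in neither arm, with 0.76 at 0 Gy and -0.77 at 7.5 Gy. The 3 that were also called follow. S100a8 had -1.45 at 0 Gy and 0.92 at 7.5 Gy, S100a9 -1.24 at 0 Gy and 0.65 at 7.5 Gy, and Il1b -1.07 at 0 Gy and 0.14 at 7.5 Gy. The direction of Il1b at 7.5 Gy turned with positive control scaling, to -0.10, while under pan-leukocyte scaling all 3 genes were above 0 in both arms. The widest gap of a gene called at 0 Gy was that of Cxcl13, with -2.32 at 0 Gy and 0.70 at 7.5 Gy, where it had 15 counts at T21 and 10 at T14, at background in the T14 sample. Each arm has 1 sample a phase, so the difference between arms was not tested.

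Signal also appeared in genes that the filter on mean raw count removed. Lta, which encodes lymphotoxin alpha, had 25 counts at T21 0 Gy and 10 at T14 0 Gy, and Il21, a cytokine of helper T cells, had 21 at T21 and 11 at T14. Both were above background at T21 and under it at T14, and neither passed 2-fold against that background.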

How the results depend on the processing

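The size and split of the calls at 0 Gy rest on the scale. The 133 lower and 1 higher calls became 52 and 33 with the median of ratios, 66 and 22 with total immune gene counts, and 1 and 193 with the pan-leukocyte genes, and the median log2 ratio of -0.58 became 0.043, -0.081 and 1.08. Positive controls and the housekeeping probes over 100 counts left the counts within 1.5 times. Subtracting the negative controls gave 2 higher calls, counting genes at background in both samples gave 4, and keeping genes with a mean over 50 counts in the 2 samples gave 0 higher calls and a median of -0.40. At 7.5 Gy the 136 lower and 2 higher calls became 50 and 30, 74 and 9, and 8 and 160 under the same 3 scalings in that order.

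Of the 83 called genes named here, and of the lists with a median past 2-fold, none turned direction under any alternative run other than pan-leukocyte scaling, which sets that list to no change by construction. There 38 of the 83 turned positive (79 of all 133 genes that fell), with log2 ratios for Card9 0.43, Ccl3 0.25, Cd14 0.20, Cd36 0.43, Cd69 0.44, Cd83 0.12, Cd86 0.21, Csf3r 0.25, Ctla4 0.43, Cx3cr1 0.53, Cxcl9 0.081, Cxcr2 0.28, Entpd1 0.081, Fcer1g 0.30, Gpr183 0.34, Gzmb 0.29, H2-DMb2 0.17, H2-Eb1 0.14, Ifitm1 0.17, Ifnar2 0.24, Il1b 0.59, Il1r2 0.64, Il1rn 0.23, Itgax 0.56, Pecam1 0.12, Pirb 0.62, Prf1 0.46, Ptpn6 0.020, Ptprc 0.00047, S100a8 0.21, S100a9 0.42, Tcf7 0.53, Tgfbi 0.37, Tlr2 0.11, Tlr8 0.013, Tnf 0.27, Trem2 0.16 and Tyrobp 0.29. The medians of 11 lists turned positive too, with CD8 and cytotoxic effectors 0.46, Fc receptors and their signaling 0.020, T cell receptor complex and signaling 0.53, Toll-like and other innate sensors 0.46, chemokine receptors 0.15, chemokines 0.54, co-stimulatory ligands 0.57, complement 0.59, dendritic cells 0.12, neutrophils and MDSC 0.26 and pan-leukocyte 0.00047. No paired analysis was possible because each condition is 1 sample, and for the same reason no replicate could be left out. Depth limits the low genes: 46 of the 415 were at background in both samples and another 46 in 1 of them. Scalings of the 7.5 Gy arm and the count over all 133 genes were chosen after seeing the data.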

Other observations

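Genes outside every list also fell at T21 against T14 at 0 Gy. Of 92 such genes compared, 26 were lower, against 107 of 277 genes in a list. Lists were matched by symbol alone, so a probe without a symbol match counts as outside every list. The 26 include such a probe, with 1266 raw counts at T21 and 3315 at T14. The following were chosen after their values were seen. Cybb, the catalytic chain of the phagocyte NADPH oxidase, had 275 normalized counts at T21 and 897 at T14. Trem2, a lipid-sensing receptor of macrophages, had 82.3 at T21 and 234 at T14, Gpr183, an oxysterol receptor, 112 at T21 and 281 at T14, and Pirb, an inhibitory myeloid receptor, 78.2 at T21 and 161 at T14. The scavenger receptor Cd36 had 23 raw counts at T21 and 44 at T14, and the activation marker Cd69 19 at T21 and 36 at T14.

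Other lists gave the following counts, beside a median of -0.58 and a share of 36.0% lower over all genes compared. Of 24 compared transcription factors 8 fell (median log2 ratio -0.46), of 17 adhesion genes 8 (-0.35), of 14 TNF family genes 5 (-0.64), of 13 genes of the IL-6, IL-10 and STAT3 axis 3 (-0.25), of 11 gamma-chain cytokine genes 2 (-0.19) and of 9 TGF-beta genes 1 (-0.37). The shares of the transcription factors (33.3%) and the TNF family (35.7%) were close to that of all genes. Kit, Fcer1a and Ccr3, the 3 panel genes of mast cells, basophils and eosinophils, were removed by the filter.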
